A study of Homo sapiens with 4 samples.

Results

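The genes described here are 33 genes of lipid synthesis. They comprise 19 genes of the sterol branch (the mevalonate pathway, the later steps to cholesterol, and the cholesterol transporter NPC1), 10 genes of the fatty acid branch, and 4 regulators, SREBF1, SREBF2, SCAP and INSIG1. They were chosen by their known function and not by a rule on their measured values, but with earlier results of these data known. Of the 33, 28 were measured, out of 9193 genes measured in all: 17 of the sterol branch, 7 of the fatty acid branch and all 4 regulators. FDFT1 and ACSL3 were not analysed here because no probe set was annotated to them. CYP51A1 and FADS1 were found only in probe sets annotated to several genes, and ME1, a source of NADPH for fatty acid synthesis, was below the signal filter on all 4 arrays.

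The RNA came from LAPC4, an established human prostate cancer cell line that responds to androgen. Cells were infected with a GFP vector (called control cells here) or with a lentiviral shRNA against both β-TrCP isoforms, BTRC and FBXW11, which are substrate-binding subunits of an SCF ubiquitin ligase. They were grown for 72 hours in RPMI medium with 10% FCS (fetal calf serum) and 100 pM methyltrienolone, a synthetic androgen, or with 10% CSS (charcoal-stripped serum) and no added androgen. Each combination had 1 Affymetrix U133 array: control cells in CSS (androgen ablation, or CSS alone), shRNA cells in FCS (shRNA alone), shRNA cells in CSS (both treatments) and control cells in FCS. The purpose was to find genes affected by androgen ablation, by β-TrCP depletion and by the combination. The vector is inducible by doxycycline. The sample labels give GFP for the control, whereas the text of the study describes cells with the shRNA vector, with or without doxycycline, on all 4 arrays. Changes given for the shRNA may therefore include doxycycline or the vector, which cannot be told apart from the knockdown. Charcoal removes steroids and other lipids from serum together, and CSS also lacked the added androgen, so that these cannot be told apart either. With 1 array per condition no test between conditions was possible, and no p-value is given.

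Cells make cholesterol from acetyl-CoA through mevalonate, and fatty acids from acetyl-CoA through malonyl-CoA. Both branches are transcribed under control of the SREBP factors, which are held in the endoplasmic reticulum by SCAP and INSIG proteins and are cut free when membrane sterol falls. SREBF2 encodes SREBP2, known mainly for the sterol branch, and SREBF1 encodes SREBP1, known mainly for the fatty acid branch. In prostate cancer cells, androgen is known to raise the synthesis of both kinds of lipid. β-TrCP is one of several ubiquitin ligase subunits, FBXW7 being the one best known to act on nuclear SREBP.

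FBXW11, as a target of the shRNA, was read first as a check of the labels. Its log2 signal was 8.19 with CSS alone, 5.02 with the shRNA alone, 4.68 with both treatments and 8.02 in control cells in FCS, 7.98-fold lower with the shRNA in FCS. BTRC was dim, with a log2 signal of 4.64 with CSS alone and 4.50 in control cells in FCS, and with the shRNA neither array was above the floor (4.32). Of 4 genes known to be induced by androgen, FKBP5 and TMPRSS2 were lower with CSS alone than in control cells in FCS, by 0.88 and 0.48 on the log2 scale, but KLK2 and KLK3 were higher, by 0.70 and 0.73. These 4 genes thus did not move in 1 direction with CSS alone. The 6 luminal prostate markers that were kept were above the floor on all 4 arrays, FOLH1 being below the filter, and their summed signal was 5940 with CSS alone, 3979 with the shRNA alone, 4959 with both treatments and 4574 in control cells in FCS. The basal marker KRT5 and the endothelial marker PECAM1 were at the floor on every array. The basal markers KRT14 and KRT15 were above it on every array, with log2 signals of 6.07 to 6.36 and 4.90 to 5.94. The leukocyte marker CD79A had a signal of 62.5 with both treatments and 26.1 to 27.0 on the other 3 arrays. The summed fibroblast signal was 109 with both treatments and 71.9 to 74.3 on the other 3 arrays, with COL3A1 and LUM below the filter. The part of these markers in the results below was not tested. The array of both treatments also stood apart in its distribution, as described below where it is used.

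The promoters of the members were searched, because many members changed together. The window ran from 250 bases before to 50 bases after each start site in RefSeq (GRCh38.p14), and 29 of the 33 members had one. FDFT1, SQLE, ACAT2 and FASN had none in the table used. The letters searched on both strands were TCACNCCAC, a form of the sterol regulatory element bound by SREBP, CCAAT, bound by NF-Y, GGGCGG, bound by Sp1, and CACGTG, an E-box. NF-Y and Sp1 are known to act beside SREBP at sterol genes. Overlapping matches of different motifs were not removed, and a gene with several promoters counted once if any held the letters. CCAAT was found in 22 of 29 members (75.9%), against 44.1% of 7448 genes measured here and 39.7% of all 27303 genes with a promoter. By branch it was found in 13 of 16 sterol genes, 7 of 9 fatty acid genes and 2 of 4 regulators. GGGCGG was found in 27 of 29 members and in 75.7% of the genes measured here. CACGTG was found in 5 of 29 members and in 12.8% of the genes measured here. TCACNCCAC was found in 2 of 29 members, SREBF2 and ACSL1, and in 1.54% of the genes measured here. A match describes the letters and is neither a bound site nor a cause of any change, and no match says only that these letters are not in the window.

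The 250 bases before the start site are shown for 4 members, so that these letters can be read beside the values given below. SREBF2 is shown as the regulator that holds TCACNCCAC and was higher in CSS, INSIG1 as the regulator that was higher with the shRNA, and HMGCS1 and MSMO1, chosen after their values were seen, stand for the sterol genes that were higher with the shRNA. Capitals mark the matched letters, and CCAAT on the other strand reads ATTGG. SREBF2 lies at chr22:41832855-41833104 on the plus strand, with 1 match of TCACNCCAC and 1 of CCAAT marked. INSIG1 lies at chr7:155297628-155297877 on the plus strand, with 1 match of CCAAT and 1 of CACGTG. HMGCS1 lies at chr5:43313413-43313662 on the minus strand, in 1 of 2 promoters listed, with 2 matches of CCAAT. MSMO1 lies at chr4:165327419-165327668 on the plus strand, with 4 matches of CCAAT. Matches of GGGCGG are not marked.
SREBF2: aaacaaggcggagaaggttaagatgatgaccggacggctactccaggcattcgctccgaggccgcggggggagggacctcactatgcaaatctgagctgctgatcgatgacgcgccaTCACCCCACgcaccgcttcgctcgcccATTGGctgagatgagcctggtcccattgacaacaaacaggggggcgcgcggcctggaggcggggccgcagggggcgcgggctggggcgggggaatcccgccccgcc
INSIG1: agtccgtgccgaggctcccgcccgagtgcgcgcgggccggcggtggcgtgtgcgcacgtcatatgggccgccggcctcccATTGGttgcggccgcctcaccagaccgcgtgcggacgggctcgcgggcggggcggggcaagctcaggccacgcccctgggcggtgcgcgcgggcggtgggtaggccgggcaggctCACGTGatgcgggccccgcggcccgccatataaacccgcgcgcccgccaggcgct
HMGCS1: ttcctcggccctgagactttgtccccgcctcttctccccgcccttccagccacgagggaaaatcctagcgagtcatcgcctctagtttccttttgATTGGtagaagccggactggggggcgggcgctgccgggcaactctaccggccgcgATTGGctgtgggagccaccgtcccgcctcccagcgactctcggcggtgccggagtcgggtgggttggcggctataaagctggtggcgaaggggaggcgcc
MSMO1: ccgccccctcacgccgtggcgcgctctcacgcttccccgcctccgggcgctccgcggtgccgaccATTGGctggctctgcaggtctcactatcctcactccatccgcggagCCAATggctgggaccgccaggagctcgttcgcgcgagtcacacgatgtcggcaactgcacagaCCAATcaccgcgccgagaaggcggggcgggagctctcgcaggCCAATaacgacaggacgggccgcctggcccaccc

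With the shRNA alone, most genes of cholesterol synthesis were higher than in control cells in FCS, while genes of fatty acid synthesis went in both directions. The median log2 change of the 17 sterol genes was 0.56 (14 higher, 3 lower), against a median of -0.00 over 7980 genes. That of the 7 fatty acid genes was 0.05 (4 higher, 3 lower). A change of at least 1.5-fold was used as the rule of size. In all, 8 members were at least 1.5-fold higher, all but 1 of them sterol genes, and none was that much lower; of all genes, 3.21% were at least 1.5-fold higher and 3.35% lower. None of the 8 reached 2-fold, which 0.802% of all genes passed upwards and 0.401% downwards. The local spread, a robust SD over the 1000 probe sets of most similar brightness, taken between the same 2 arrays, lay between 0.23 and 0.35 for the members in this comparison. By that measure 11 sterol genes were higher and 1 lower by more than their local spread, and 1 fatty acid gene was higher and 3 lower. Since the local spread is taken from these same ratios, many genes lie beyond it by construction. The share of all genes beyond it was not counted, so these counts have no background.

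Several of the first enzymes of the mevalonate pathway were among them. HMGCS1, which makes HMG-CoA, had a log2 signal of 7.44 with CSS alone, 8.52 with the shRNA alone, 7.95 with both treatments and 7.60 in control cells in FCS. With the shRNA alone HMGCS1 was 1.89-fold higher (log2 change 0.92, local spread 0.34). Its array of both treatments was above both arrays without the shRNA only in this probe set and after normalization, since against control cells in FCS the second probe set changed by -0.07 and the deposited values by -0.15. MVK, mevalonate kinase, had a log2 signal of 6.65 with CSS alone, 6.90 with the shRNA alone, 7.71 with both treatments and 6.27 in control cells in FCS. It was the one sterol gene lowest in control cells in FCS and highest with both treatments, and was 1.55-fold higher with the shRNA alone. ACAT2, the acetoacetyl-CoA thiolase that precedes HMGCS1, had a log2 signal of 7.48 with CSS alone, 8.42 with the shRNA alone, 7.65 with both treatments and 7.86 in control cells in FCS. At 1.47-fold higher with the shRNA alone, ACAT2 lay just under the rule of size. The next enzymes of the pathway were nearer to the control: the log2 change with the shRNA alone was 0.50 for IDI1, 0.23 for FDPS, 0.22 for MVD and -0.14 for PMVK.

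Most of the enzymes from squalene to cholesterol had their highest signal with the shRNA alone, LSS and TM7SF2 being the exceptions. SQLE, squalene epoxidase, had a log2 signal of 7.75 with CSS alone, 8.44 with the shRNA alone, 7.89 with both treatments and 7.56 in control cells in FCS, and was 1.84-fold higher with the shRNA alone. MSMO1, which removes methyl groups from the sterol, had a log2 signal of 8.74 with CSS alone, 9.69 with the shRNA alone, 9.09 with both treatments and 8.85 in control cells in FCS, a 1.79-fold difference for the shRNA alone. In the brightest probe set of both genes the array of the shRNA alone was the highest and, after quantile normalization, that of both treatments came next. With the deposited values, both treatments changed SQLE by -0.36 against CSS alone and MSMO1 by -0.10 against control cells in FCS. With both treatments the second probe set of SQLE was highest (7.67) and the third lowest (4.55). NSDHL, a partner of MSMO1 in the same steps, had a log2 signal of 6.70 with CSS alone, 7.46 with the shRNA alone, 6.74 with both treatments and 6.60 in control cells in FCS. HSD17B7, which also works at these steps, had a log2 signal of 7.52 with CSS alone, 8.28 with the shRNA alone, 7.84 with both treatments and 7.58 in control cells in FCS. With the shRNA alone NSDHL was 1.81-fold and HSD17B7 1.63-fold higher, and in NSDHL the other 3 arrays lay within 0.14 of each other.

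EBP, a sterol isomerase, had a log2 signal of 8.08 with CSS alone, 8.996 with the shRNA alone, 8.37 with both treatments and 8.42 in control cells in FCS, and at 1.49-fold higher with the shRNA alone it lay just under the rule of size. DHCR7, the last enzyme of one route to cholesterol, had a log2 signal of 8.14 with CSS alone, 8.50 with the shRNA alone, 8.30 with both treatments and 7.61 in control cells in FCS. All 3 treated arrays were above the control array for DHCR7, by 1.45-fold, 1.86-fold and 1.61-fold in that order. LSS, which closes the ring of lanosterol, stood apart in the other direction: its log2 signal was 8.73 with CSS alone, 7.76 with the shRNA alone, 7.58 with both treatments and 7.77 in control cells in FCS. Only the array of CSS alone was high for LSS, and the shRNA alone changed it by -0.01. SC5D was 0.40 higher and TM7SF2 0.44 lower with the shRNA alone, and NPC1, which carries cholesterol out of lysosomes, was 0.19 higher. Over the whole branch 13 of 17 genes had their highest signal on the array of the shRNA alone, 2 on that of CSS alone, 2 on that of both treatments and 0 on that of control cells in FCS. The lead was small in NPC1 (7.23, against 7.21 with both treatments). It was also small in FDPS and MVD (10.29 and 5.71, against 10.26 and 5.67 with CSS alone). The share of all genes that were highest on that array was not counted.

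**Figure D1:**
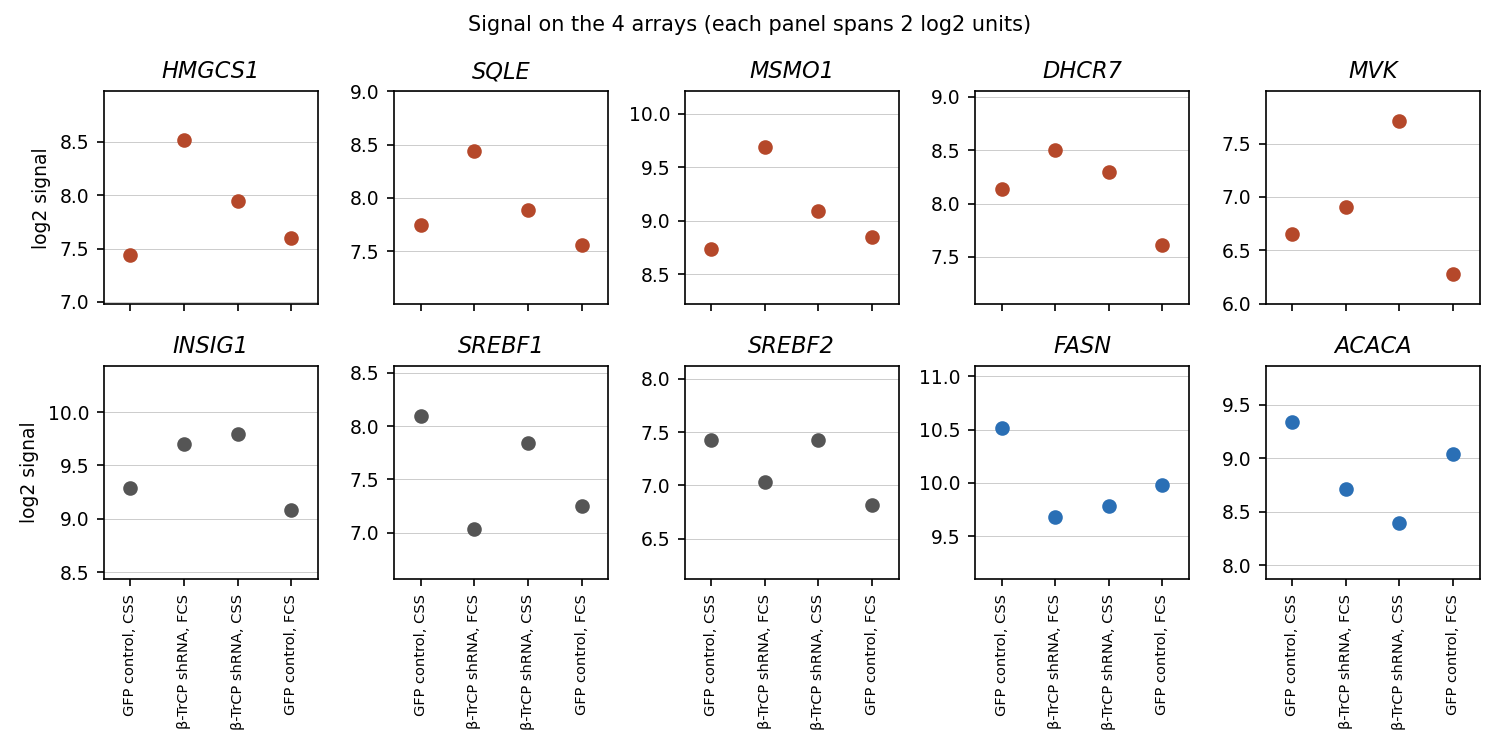
Normalized log2 signal (vertical axis, each panel spanning 2 log2 units) of 10 members on the 4 arrays, 1 point per array with no replicate; sterol genes are red, regulators grey and fatty acid genes blue. HMGCS1, SQLE and MSMO1 were highest with the shRNA alone, INSIG1 was higher on both arrays with the shRNA, SREBF1 was higher on both arrays in CSS, and FASN was highest with CSS alone.

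Among the regulators, INSIG1 went with the sterol genes. INSIG1, which retains SCAP in the endoplasmic reticulum and is itself a target of SREBP, had a log2 signal of 9.29 with CSS alone, 9.70 with the shRNA alone, 9.79 with both treatments and 9.08 in control cells in FCS. Both arrays with the shRNA were above both arrays without it, by 1.54-fold in FCS and 1.41-fold in CSS. The genes of the SREBP factors themselves did not follow it. SREBF2 had a log2 signal of 7.43 with CSS alone, 7.03 with the shRNA alone, 7.42 with both treatments and 6.82 in control cells in FCS. SREBF1 had a log2 signal of 8.10 with CSS alone, 7.04 with the shRNA alone, 7.84 with both treatments and 7.25 in control cells in FCS. With the shRNA alone SREBF2 changed by 0.21 and SREBF1 by -0.22, both within their local spread of 0.32 and 0.35. SCAP, the sterol sensor that escorts SREBP, had a log2 signal of 7.45 with CSS alone, 6.95 with the shRNA alone, 6.78 with both treatments and 7.18 in control cells in FCS, and changed by -0.23 with the shRNA alone.

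In the fatty acid branch the shRNA alone gave small differences in both directions. ACACA, acetyl-CoA carboxylase, had a log2 signal of 9.34 with CSS alone, 8.71 with the shRNA alone, 8.40 with both treatments and 9.04 in control cells in FCS. FASN, fatty acid synthase, had a log2 signal of 10.51 with CSS alone, 9.68 with the shRNA alone, 9.78 with both treatments and 9.98 in control cells in FCS. In both genes the arrays with the shRNA were below the arrays without it, by 1.26-fold in ACACA and 1.23-fold in FASN with the shRNA alone. ELOVL5, which lengthens polyunsaturated fatty acids, had a log2 signal of 10.89 with CSS alone, 10.50 with the shRNA alone, 10.31 with both treatments and 10.94 in control cells in FCS. It too was lower on both arrays with the shRNA, by 1.36-fold with the shRNA alone. ACLY, which supplies acetyl-CoA to both branches, was 0.31 higher, the desaturases FADS2 and SCD 0.26 and 0.08 higher, and ACSL1, which activates fatty acids for use, 0.05 higher.

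**Figure D2:**
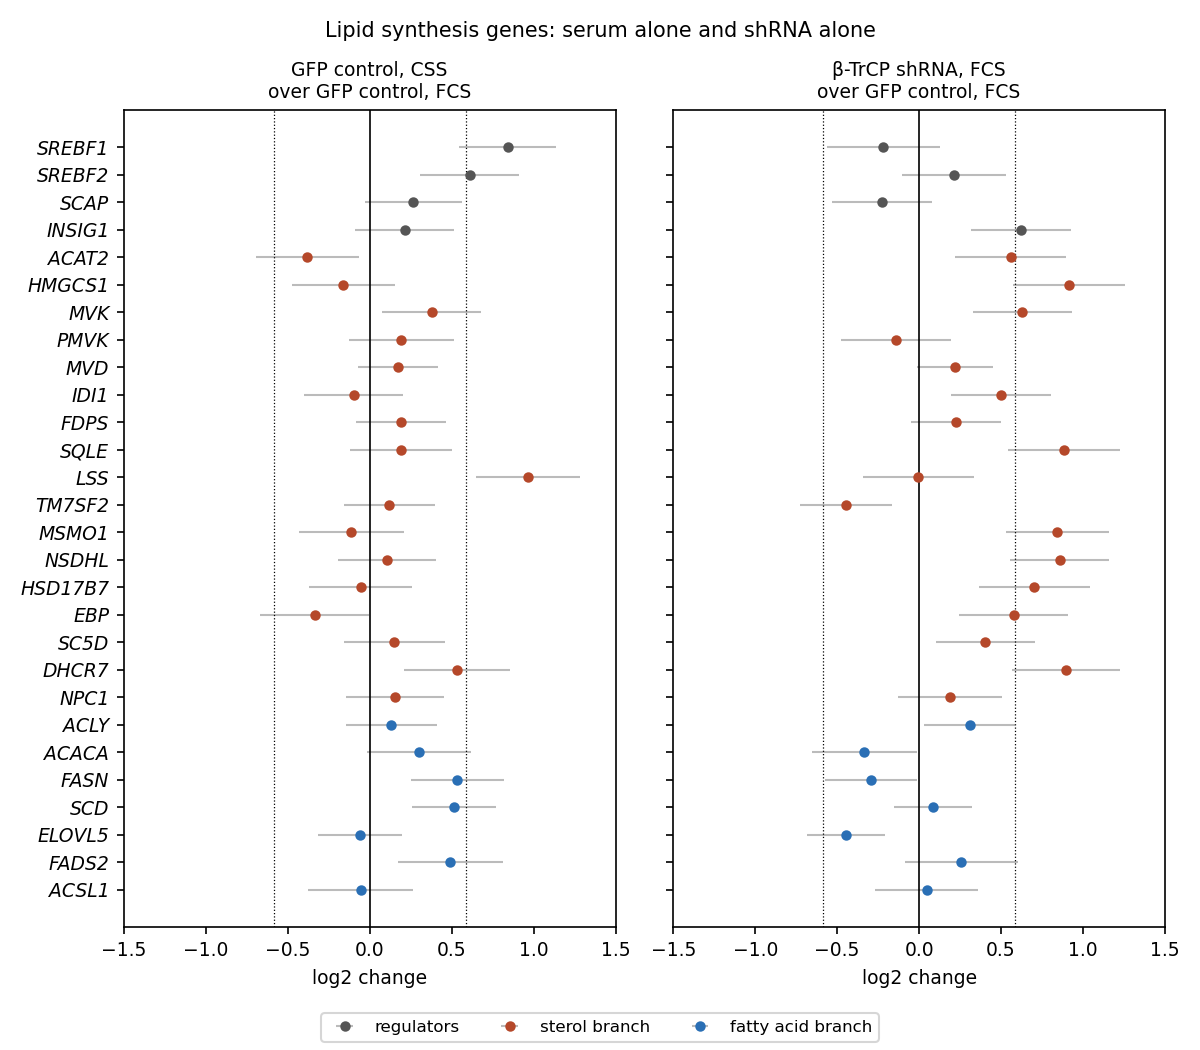
Log2 change (horizontal axis) of the 28 measured members with CSS alone (left) and with the shRNA alone (right), each over control cells in FCS; bars are the local spread of probe sets of like signal between the same 2 arrays, not a replicate error, and dotted lines mark 1.5-fold. With the shRNA alone 14 of 17 sterol genes (red) lie right of 0, while ACACA, FASN and ELOVL5 (blue) lie left of it; with CSS alone SREBF1, SREBF2 and LSS pass the right dotted line.

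CSS alone gave another pattern. The 4 regulators were all higher than in control cells in FCS, the brightest probe sets of several fatty acid genes were moderately higher, and most sterol genes were near the control. The median log2 change of all members was 0.18 (20 higher, 8 lower), against 0.02 over 7978 genes. The sterol branch had a median of 0.15 (11 higher, 6 lower) and the fatty acid branch one of 0.30 (5 higher, 2 lower). With the mean over the probe sets of each gene the fatty acid median was 0.027, with FASN at 0.21, ACACA at 0.15 and SCD at -0.22. At least 1.5-fold higher were 3 members, SREBF1, SREBF2 and LSS, and none was that much lower, while 2.46% of all genes were at least 1.5-fold higher and 2.23% lower. None of the 3 reached 2-fold, which 0.163% of all genes passed upwards and 0.138% downwards.

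SREBF1 was 1.79-fold higher with CSS alone (log2 change 0.84, local spread 0.30) and SREBF2 1.53-fold higher (0.61, local spread 0.30), while SCAP and INSIG1 were 0.27 and 0.21 higher. Among fatty acid genes FASN was 1.45-fold, SCD 1.43-fold and FADS2 1.41-fold higher, 0.54, 0.52 and 0.49 on the log2 scale, each beyond its local spread of 0.28, 0.26 and 0.32 but under the rule of size. ACACA was 0.30 higher, ACLY 0.13, and ELOVL5 and ACSL1 each 0.06 lower, so that 4 of 7 fatty acid genes and 3 of 4 regulators had their highest signal on this array. In the sterol branch LSS was 1.95-fold higher and DHCR7 1.45-fold higher. Several genes that were high with the shRNA were lower here: the log2 change with CSS alone was -0.38 for ACAT2, -0.34 for EBP, -0.16 for HMGCS1, -0.11 for MSMO1 and -0.05 for HSD17B7. RNA quality moved with this array. The difference between the 3′ and the 5′ probe set of ACTB was 1.03 on the log2 scale with CSS alone and 0.41, 0.44 and 0.45 on the arrays of the shRNA alone, of both treatments and of control cells in FCS. For GAPDH it was 0.18, against -0.01 to 0.03 on the other 3. Its part in the changes with CSS alone was not tested. In RNA from whole cultures, a change in the share of some cells and a change in RNA per cell cannot be told apart.

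Where a gene had several probe sets, they shared a direction more often with the shRNA alone than with CSS alone. Of 17 members with at least 2 probe sets, all probe sets changed in the same direction for 15 with the shRNA alone, ELOVL5 and LSS being the exceptions, and for 7 with CSS alone. All 6 of the members at least 1.5-fold higher with the shRNA alone that had several probe sets were among the 15. The second probe set of HMGCS1 was 1.18 higher on the log2 scale with the shRNA alone, the second of DHCR7 was 0.74 higher and the second of NSDHL 0.72 higher. The 3 probe sets of INSIG1 were 0.62, 0.51 and 0.88 higher, in order of brightness. MVK and SQLE were less steady: the other probe sets of MVK were 0.43 and 0.53 higher, and those of SQLE 0.26 and 1.05 higher. With CSS alone the second probe set of SREBF2 was 0.10 higher and the other probe sets of LSS were 0.16 and 0.30 higher, far less than the brightest one of each gene. SREBF1 had 1 probe set. The 4 probe sets of SCD changed by 0.52, 0.02, -0.90 and -0.52 with CSS alone, so that no direction can be given for SCD there, whereas with the shRNA alone they were higher by 0.08, 0.30, 0.52 and 0.59. FASN had a second probe set near the floor, and that of ACACA did not change (0.00) with CSS alone.

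**Figure D3:**
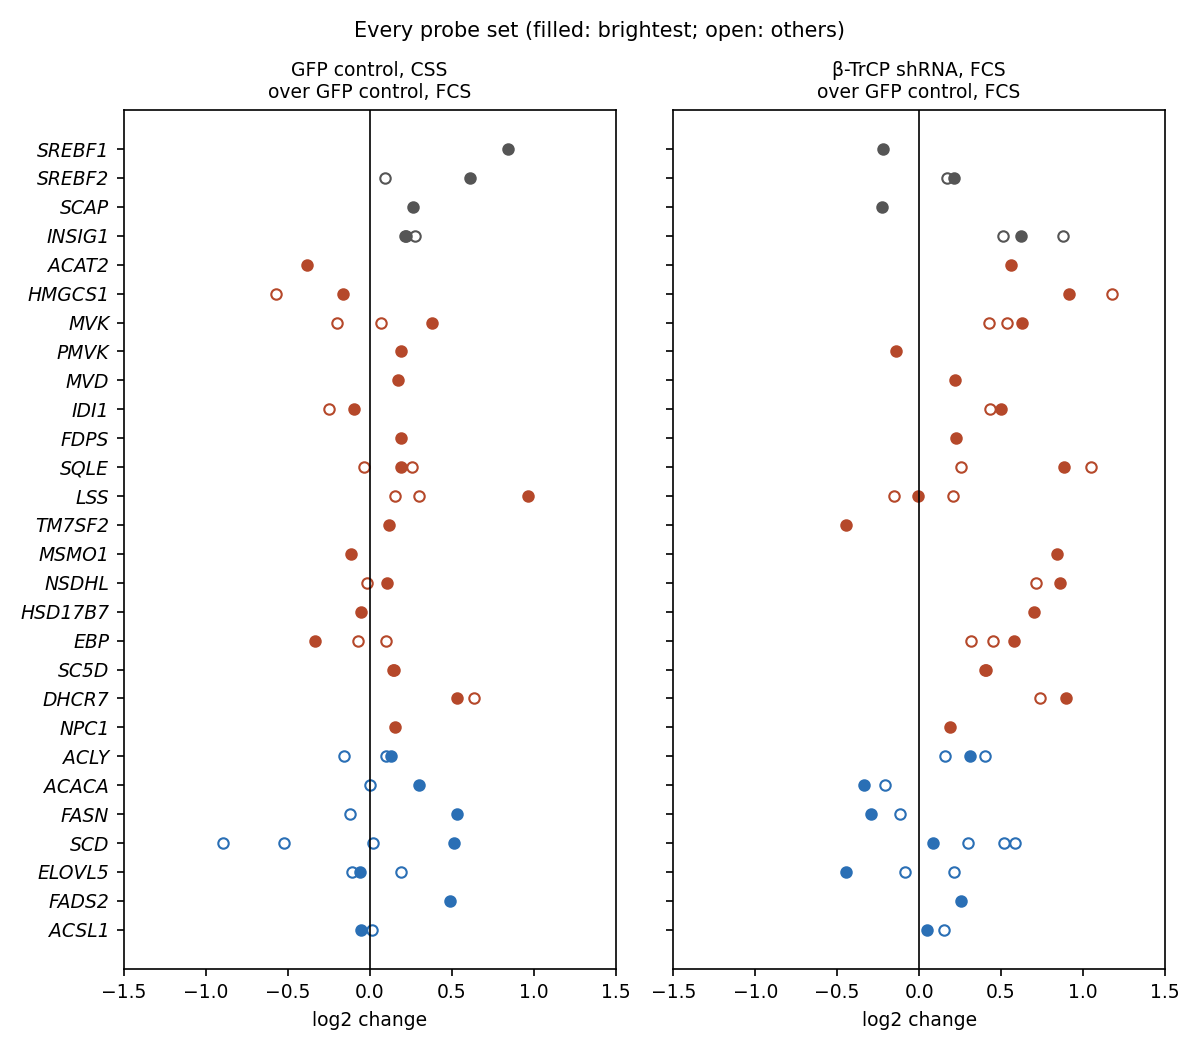
Log2 change (horizontal axis) of every kept probe set of the 28 measured members with CSS alone (left) and with the shRNA alone (right), each over control cells in FCS; filled points are the brightest probe set of a gene, open points the others, and colours mark regulators (grey), sterol genes (red) and fatty acid genes (blue). The probe sets of INSIG1, HMGCS1, NSDHL and DHCR7 lie together right of 0 with the shRNA alone, while those of SCD spread from -0.90 to 0.52 with CSS alone.

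With both treatments the members spread in both directions, and the values rest on an array that stood apart. Its deposited log2 values had an interquartile range of 2.07, against 2.69 to 2.74 on the other 3 arrays, 35.0% of its values were under the floor, against 41.7% to 42.0%, and its correlation with the other arrays after normalization (Pearson's r over probe sets) was 0.934 to 0.935, against 0.979 to 0.989 among them. The robust SD of the log2 change over all genes was 0.59 with both treatments, against 0.23 with CSS alone and 0.24 with the shRNA alone. Of the members, 5 were at least 1.5-fold higher with both treatments than in control cells in FCS (MVK, DHCR7, SREBF1, SREBF2 and INSIG1) and 2 lower (ACACA and ELOVL5), but so were 18.2% and 16.3% of all genes. The share of members was thus near or below that of all genes, but all genes include many dim ones, while only MVD of the members was under the median signal. The local spread here was 1.04 for MVD, the dimmest member, and 0.28 for ELOVL5, the brightest. The 7 members changed by 1.10 (SREBF2) to 2.34 (MVK) times their local spread. MVK was 2.71-fold higher, the one member past 2-fold (all genes 7.95% higher and 6.91% lower by that size), with its other probe sets higher by 1.39 and 0.45 on the log2 scale. INSIG1 was 1.64-fold, DHCR7 1.61-fold, SREBF2 1.52-fold and SREBF1 1.501-fold higher, ACACA was 1.56-fold and ELOVL5 1.55-fold lower. With the deposited values, not quantile normalized, INSIG1 was 0.50, DHCR7 0.25, SREBF2 0.11 and SREBF1 0.09 higher on the log2 scale and under the rule of size, where the median of all genes moved to -0.16. The sterol branch had a median of 0.18 and the fatty acid branch one of 0.02, and both were below 0 with the deposited values (-0.23 and -0.38, or -0.07 and -0.22 relative to the median of all genes). Because the members were bright, with a median signal percentile of 83.8, the median of all genes is not a reference of like brightness. This also holds where it is used below.

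The effect of the shRNA could be read a second time within CSS, from 2 arrays that were not used for it in FCS. Here 12 of 17 sterol genes were higher, with a median log2 change of 0.14, and 6 of 7 fatty acid genes were lower, with a median of -0.38, against 0.01 over 8731 genes. The sterol count depended on the scaling: 9 of 17 were higher with a common median (median 0.0035) and with the mean over probe sets (0.021), and 3 of 17 with the deposited values (-0.30), where 6 of 17 were above the median of all genes. Of the members, 1 was at least 1.5-fold higher (MVK, 2.09-fold) and 4 were lower (LSS 2.23-fold, ACACA 1.92-fold, FASN 1.66-fold and SCAP 1.58-fold), against 16.7% and 16.4% of all genes. MVK and LSS passed 2-fold, against 7.77% of all genes higher and 6.73% lower by that size. HMGCS1 was 0.51, INSIG1 0.50, MSMO1 0.35, HSD17B7 0.32, EBP 0.29 and IDI1 0.28 higher in CSS, each less than in FCS, where these values were 0.92, 0.62, 0.84, 0.70, 0.58 and 0.50. With the deposited values only INSIG1 (0.32), MSMO1 (0.05) and IDI1 (0.03) of these 6 stayed above 0. SQLE was 0.14, NSDHL 0.04 and DHCR7 0.16 higher in CSS, and turned to -0.36, -0.50 and -0.27 with the deposited values, where the median of all genes was -0.20 and the sterol branch relative to it -0.09. Of the 17 sterol genes, 11 were higher with the shRNA in both sera, 2 were lower in both and 3 went opposite ways, while SC5D did not change in CSS (0.00). That is a shared direction in 76.5%, against 56.7% over all genes. It was 52.9% with a common median and with the mean over probe sets, and 35.3% with the deposited values, against 55.3%, 56.4% and 52.0% over all genes. Of the 7 fatty acid genes, 1 was higher in both, 3 were lower in both (ACACA, FASN and ELOVL5) and 3 went opposite ways. With the deposited values ACACA, FASN and ELOVL5 were lower with the shRNA in CSS by 1.31, 0.88 and 0.71 on the log2 scale. There all 7 fatty acid genes and 14 of 17 sterol genes were lower, so the direction does not set these 3 apart. The part of the array of both treatments in it was not tested.

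The effect of CSS could likewise be read a second time within shRNA cells. There 14 of 17 sterol genes were lower in CSS than in FCS, with a median log2 change of -0.44, against 0.15 in control cells. In the fatty acid branch 4 of 7 were lower, with a median of -0.14, against 0.30 in control cells. At least 1.5-fold lower were 4 members (ACAT2 1.70-fold, NSDHL 1.64-fold, EBP 1.54-fold and MSMO1 1.52-fold) and at least 1.5-fold higher 2 (MVK and SREBF1, each 1.75-fold), against 16% and 17.4% of all genes. No member passed 2-fold here, against 7.9% of all genes higher and 6.64% lower. SREBF1 was higher with CSS in both kinds of cell, by 0.80 in shRNA cells and 0.84 in control cells. With the deposited values the differences were 0.28 in shRNA cells and 0.83 in control cells. SREBF2 was 0.40 higher with CSS in shRNA cells and 0.61 in control cells, but -0.13 in shRNA cells with the deposited values. Several sterol genes that were high with the shRNA in FCS were lower with CSS here, with SQLE at -0.56, HMGCS1 at -0.57 and HSD17B7 at -0.44. Relative to the median of all genes the sterol branch was at -0.45 with the deposited values, 14 of 17 genes lying below it. That median is not of like brightness, and the upper quartile of the deposited values was 6.11 with both treatments and 6.60 with the shRNA alone. The part of brightness in this value was not tested.

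**Figure D4:**
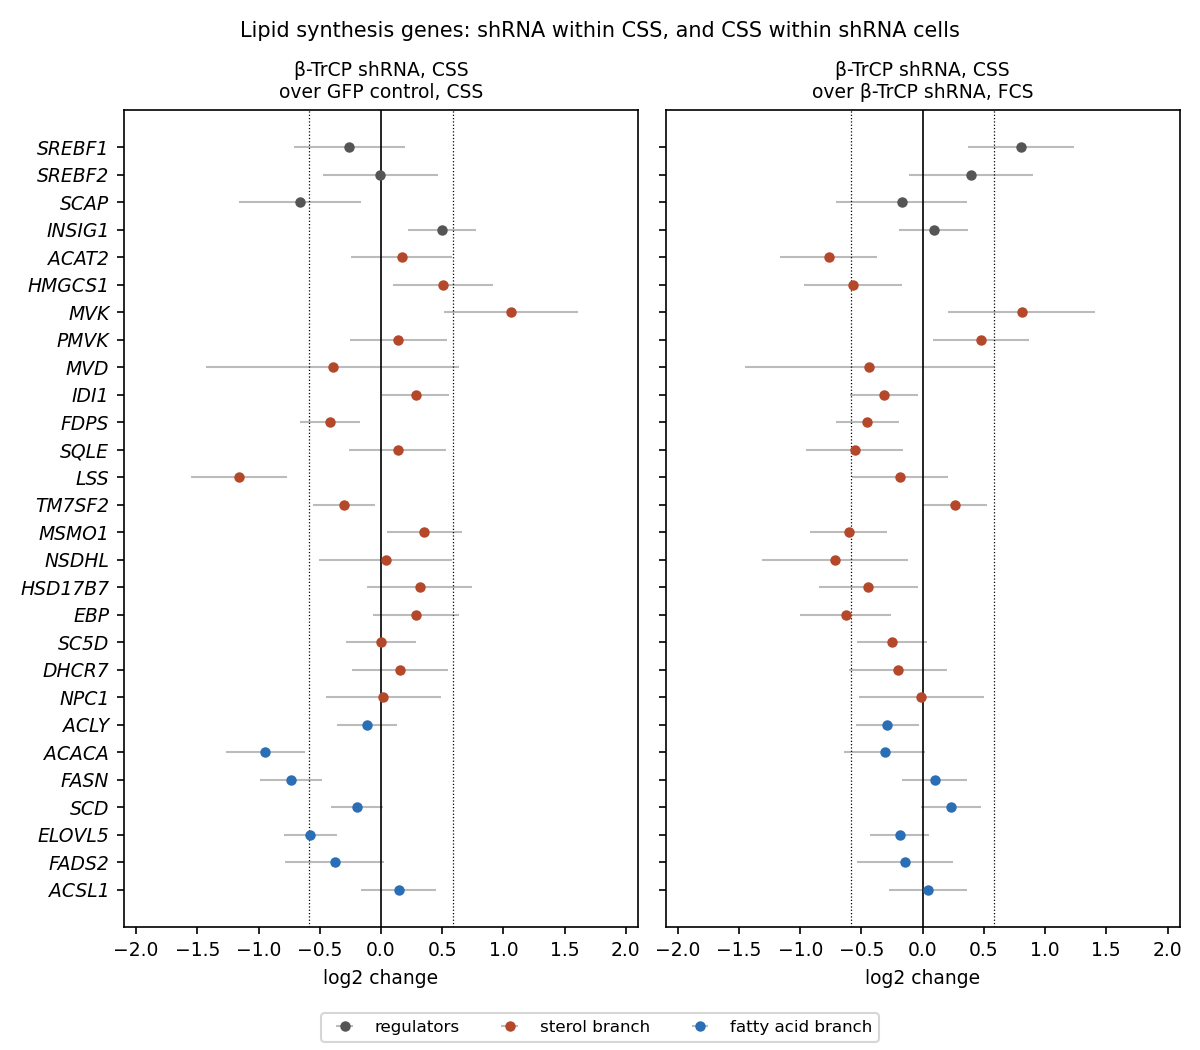
Log2 change (horizontal axis) of the 28 measured members with the shRNA within CSS (left) and with CSS within shRNA cells (right); both use the array of both treatments, bars are the local spread and dotted lines mark 1.5-fold. On the left ACACA, FASN, ELOVL5 and LSS (blue and red) lie below 0, and on the right 14 of 17 sterol genes do, with MVK and SREBF1 above.

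The combination was also set against the sum of both single changes on the log2 scale. The departure from additivity (both treatments, minus the shRNA alone, minus CSS alone, plus control cells in FCS) was below 0 in 24 of 28 members, with a median of -0.40, against a median of -0.06 and 54.9% below 0 over 7670 genes. The signal with both treatments was thus lower than the sum of the single changes for most members. The departure was lowest for LSS (-1.15), followed by NSDHL (-0.82), SQLE (-0.75) and DHCR7 (-0.74), and it was above 0 for MVK (0.43), PMVK (0.28), TM7SF2 (0.14) and ACSL1 (0.10). After quantile normalization it was near 0 for SREBF1 (-0.04) and INSIG1 (-0.12). With the deposited values SREBF1 changed by 0.83 with CSS alone, -0.19 with the shRNA alone and 0.09 with both treatments. INSIG1 changed there by 0.18, 0.63 and 0.50 in the same order. Both genes were thus below the sum of their single changes with those values. All 28 departures use the same 4 arrays, and with the deposited values the median was -0.74 with 28 of 28 below 0, and the part of the array of both treatments in it was not tested.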

How the data were processed

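The authors deposited log2 signals of 22277 probe sets for 4 arrays. Their methods and the labels name MAS5, and the methods add a minimum intensity of 20, a present call on 1 array and quantile normalization of log2 values. The deposited log2 values (3.17 to 13.2) cover all probe sets without present calls, and their distributions differ, so the intensity filter and the normalization were applied here. Whether they are unscaled MAS5 signals was not tested. Sample groups came from the labels.

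A probe set was kept if its signal reached 20 on 1 array (15678 kept, Affymetrix controls included). Kept log2 values were quantile normalized and raised to 4.32 (a signal of 20, the floor) where lower. In GEO's platform annotation 19070 probe sets had 1 gene, 1043 had several and 2164 had none. Only those with 1 gene were used, no symbol needed updating, and the 62 control probe sets of the table were dropped after normalization. Each of 9193 genes was represented by its brightest probe set, by mean over the arrays. Genes at the floor on both arrays of a comparison had no fold, and on 1 array a bound only. Log2 changes were differences between 2 arrays, so no test was run, and the number of arrays limits the precision.

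Signals on all 4 arrays are given for the regulators and for each member changed at least 1.5-fold in 1 or more of 5 comparisons (17 of 28), the others by range and counts. The members, lists and rules were chosen with earlier results of these data known. Alternatives were the deposited values, a common median, a quantile target without the array of both treatments, removing the floor or raising it to 100, removing the filter or raising it to 100, averaging a gene's probe sets, and a 2-fold rule. The steps were tested on simulated data. Python 3.11.15, numpy 2.4.6, pandas 2.3.3 and matplotlib 3.10.9 were used.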

Additional observations from a re-analysis of the deposited data

Results flagged for a closer look

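3 pairs of branch medians pointed in opposite directions under the same contrast, and none of these differences was tested. The median log2 change of the sterol branch with CSS was -0.44 in shRNA cells (shRNA cells in CSS over shRNA cells in FCS) and 0.15 in control cells (control cells in CSS over control cells in FCS). For the fatty acid branch the same contrast gave -0.14 in shRNA cells and 0.30 in control cells. The median change of the fatty acid branch with the shRNA was -0.38 in CSS and 0.046 in FCS. All 3 rest on the array of both treatments, whose part was not tested.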

How the results depend on the processing

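Of 1110 values of single members under the alternatives, 51 had the opposite sign, 26 of them with the deposited values, 15 with the mean over probe sets and 10 with a common median. None of these members had been past 1.5-fold in that comparison, and 2 were for the shRNA alone. Of 74 branch medians that kept their sign and moved by less than the local spread, 9 still moved by over 1.5 times. The largest falls were those of the sterol median for the shRNA in CSS (0.0035 with a common median, against 0.14) and of the fatty acid median for CSS alone (0.027 with the mean over probe sets, against 0.30); the sterol median for both treatments was 0.044 with a common median. With the deposited values, the sterol median was -0.23 for both treatments over control cells in FCS and -0.30 over CSS alone, and the fatty acid median was -0.38 and -0.71 in these comparisons. There 14 members were at least 1.5-fold changed with CSS in shRNA cells, all of them lower, and the median departure from additivity was -0.74. With a common median, the fatty acid median for both treatments was -0.10 and 4 members were at least 1.5-fold changed. With the mean over probe sets, 1 member passed with CSS alone, 4 passed with both treatments over control cells in FCS, and the fatty acid median for both treatments was -0.019. The shares of all genes past 1.5-fold under these alternatives were not counted, so the member counts under them have no background. At 2-fold, 0 members passed with CSS alone, 0 with the shRNA alone, 1 with both treatments, 2 with the shRNA in CSS and 0 with CSS in shRNA cells. The cause was not tested. The 8 members at least 1.5-fold higher with the shRNA alone all stayed so under each alternative at 1.5-fold, except MVK with a floor of 100 and with the mean over probe sets. No paired analysis was possible because each condition has 1 array. With 1 array per condition the spread between cultures is unknown, and present calls were not used.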

Other observations

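Other lipid genes came from lists chosen with earlier results known, and they differed by list. Of 12 genes of fatty acid oxidation measured (of 13), 2 were higher and 10 lower with the shRNA alone, with a median log2 change of -0.11, against a median of -0.00 with 49.9% higher over 7980 genes, and ACADVL, which starts the oxidation of very long chains, was 1.80-fold lower. ACADVL had a log2 signal of 9.19 with CSS alone, 7.76 with the shRNA alone, 8.97 with both treatments and 8.61 in control cells in FCS, so that only the array of the shRNA alone was below the control. Of 5 lipid droplet genes measured (of 7), the lipases PNPLA2 and LIPE were higher with both treatments only. Both differences rest on the array that stood apart, whose part in them was not tested. PNPLA2 had a log2 signal of 7.94 with CSS alone, 8.02 with the shRNA alone, 9.49 with both treatments and 8.17 in control cells in FCS, a 2.49-fold difference for both treatments. LIPE was dim and 2.32-fold higher with both treatments, where 7.95% of all genes were at least 2-fold higher.

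Of 16 further genes linked to SREBP, 8 were measured. With the shRNA alone, 7 of them had a change, 5 higher and 2 lower, with a median log2 change of 0.07. INSIG2, a relative of INSIG1, went the other way from it on the arrays with the shRNA. Its log2 signal was 6.28 with CSS alone, 5.75 with the shRNA alone, 4.74 with both treatments and 6.27 in control cells in FCS. With CSS alone INSIG2 changed by 0.01. Its change of -1.53 with both treatments came from the array that stood apart, with a local spread of 0.87. TMEM97 was 1.55-fold lower with CSS alone and 0.26 higher on the log2 scale with the shRNA alone, within its local spread of 0.31. ELOVL6 was 0.50 higher and MBTPS1, a protease that cuts SREBP, 0.58 lower with the shRNA alone on the log2 scale, both under 1.5-fold. Of 4 genes of sterol efflux and LXR measured (of 5), none changed by 1.5-fold with either single treatment. Over all genes 2.46% were that much higher and 2.23% lower with CSS alone, and 3.21% and 3.35% with the shRNA alone. None of 4 therefore says little about this list. With both treatments MYLIP was 1.78-fold higher and NR1H3 1.55-fold lower, against 18.2% and 16.3% of all genes past 1.5-fold.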
